A study of Mus musculus with 6 samples.

Results

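The Kruppel-like factors are transcription factors that end in C2H2 zinc fingers and bind GC-rich and CACCC sequences. Mouse genes of the family were chosen by name, as table entries called Klf followed by a number. Of 17 such genes in GENCODE M21, 9 were listed, with 14 of the 15905 transcripts and among 8513 genes in all. Klf2, Klf4, Klf6 and Klf10 were named when the family was chosen, and Klf3, Klf7, Klf9, Klf13 and Klf15 also met the rule. The other 8 (Klf1, Klf5, Klf8, Klf11, Klf12, Klf14, Klf16 and Klf17) have no entry and are not analysed here. The family was proposed with this comparison already known, so the values and the authors' adjusted p-values below are a description and test nothing.

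The samples were cultures of B16.F10, a wild-type mouse melanoma line that makes melanin. Of these, 3 were labelled as untreated and 3 received 3.5 µM simvastatin for 24 h, a dose that the protocol names as its IC50, and all 6 carry the same batch label. Simvastatin inhibits HMG-CoA reductase, which makes mevalonate, the precursor of cholesterol and of the lipid tails that anchor some proteins to membranes. The deposited table gives 1 value per group for each transcript, without values per sample, and the sources used here do not give the unit. No SD, n-based error or depth can therefore stand beside any value, and a level of one gene is not read as higher or lower than that of another. All 10 melanocyte lineage genes of a marker list were listed, against 0 of 10 endothelial, 0 of 8 fibroblast and 1 of 9 macrophage and leukocyte genes. Of the melanocyte genes 1 had a transcript past an adjusted p of 0.05, as did 3.82% of all genes. A transcript of Gpnmb, a melanosome glycoprotein gene with 9 listed transcripts, rose from 1060 to 1856 (adjusted p = 0.042 in the authors' deposited table). The 1 leukocyte gene, Cd68, had group values of 0.93 with simvastatin and 0.37 in control. In these bulk cultures, a change in every cell and a change in a few cells cannot be told apart.

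Family members differ in the partners they bring to DNA. Klf2, Klf4, Klf6 and Klf7 mostly recruit acetyltransferases and activate, Klf3 recruits CtBP and represses, and Klf9, Klf10 and Klf13 recruit Sin3A and repress. In blood vessel linings KLF2 and KLF4 are known as flow-responsive genes that lie downstream of the kinases MEK5 and ERK5 and of MEF2 factors, and statins are known to raise KLF2 there. KLF4 is also a reprogramming factor, and KLF10 is known as an early TGF-beta response gene.

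The bases before the start sites of the 3 members that rose are shown because a MEF2 site is known from the KLF2 promoter and family members are known to bind GC-rich DNA. They are RefSeq windows of GRCm38.p6, read 5′ to 3′ on the gene's strand and ended at the earlier of the RefSeq and GENCODE starts. Capitals mark matches to the GC box (GGGCGG), to the CACCC box (CACCC) and to the MEF2 consensus, on either strand. The stretches are chr8:72318812-72319032 on the + strand for Klf2, chr4:55532476-55532725 on the - strand for Klf4 and chr13:5861239-5861481 on the + strand for Klf6.
Klf2: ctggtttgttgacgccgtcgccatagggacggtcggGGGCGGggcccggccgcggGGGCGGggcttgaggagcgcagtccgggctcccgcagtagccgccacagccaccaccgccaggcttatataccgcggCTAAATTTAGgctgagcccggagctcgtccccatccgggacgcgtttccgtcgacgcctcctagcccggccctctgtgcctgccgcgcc
Klf4: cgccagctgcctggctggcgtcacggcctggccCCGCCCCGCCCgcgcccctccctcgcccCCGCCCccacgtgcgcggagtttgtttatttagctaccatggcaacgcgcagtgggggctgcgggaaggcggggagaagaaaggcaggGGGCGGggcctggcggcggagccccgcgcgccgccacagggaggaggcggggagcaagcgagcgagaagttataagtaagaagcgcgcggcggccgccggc
Klf6: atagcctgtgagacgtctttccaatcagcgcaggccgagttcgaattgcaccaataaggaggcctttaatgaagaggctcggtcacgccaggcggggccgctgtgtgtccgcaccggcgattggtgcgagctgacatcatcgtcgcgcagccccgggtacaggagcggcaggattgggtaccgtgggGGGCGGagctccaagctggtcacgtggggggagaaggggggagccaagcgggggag

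The Klf2 stretch held 1 match to the MEF2 consensus, at bases -118 to -109 from the RefSeq start, and 2 GC boxes farther upstream. Of all 32851 RefSeq windows, 3.19% hold the MEF2 consensus, and Klf2 was the 1 gene among the 8 listed Klf genes with a window that did. This motif was searched after the Klf2 window had been read. The 4 shorter MEF2 cores searched first (TATTTATA, TATTTTTA, TATTTTAA and TATTTAAA), which can overlap the consensus, matched none of the 8 windows and 1.7%, 2.72%, 1.86% and 1.81% of all windows. Klf4 held 4 GC boxes, of which 2 share a base, and Klf6 held 1. Of the 8 windows 7 held a GC box and 6 a CACCC box, against 35.7% and 57.5% of all windows. The Klf windows are richer in G and C, at 59.2% to 78.4% of the 250 bases before the start, than the median window at 52.4%, and the part of base composition in the GC box count was not tested. The CACCC match of Klf2 lies between the GENCODE and the RefSeq start and is not shown.

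**Figure D1:**
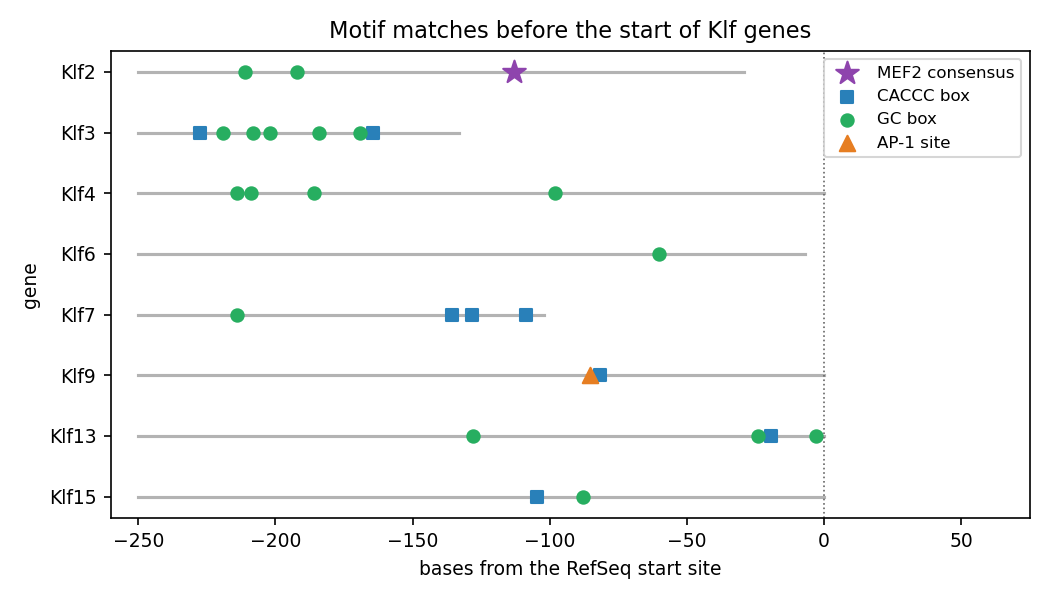
Motif matches in the bases before the start of the 8 listed Klf genes with a RefSeq window. The x axis is the distance in bases from the RefSeq start, grey lines show the stretch searched up to the earlier annotated start, and each symbol is 1 match on either strand. Klf2 carries the MEF2 consensus match, and Klf9 carries the match to the AP-1 pattern TGANTCA.

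In Klf9, a match to the AP-1 pattern TGANTCA, where N is any base (7.81% of all windows), lay at bases -89 to -83. Its letters are TGAATCA, and a stricter AP-1 pattern was not searched. The match overlaps a CACCC box at -84 to -80. None of the 8 windows held the exact TATA box letters searched (TATAAA, 13.6% of all windows), and variants of these letters were not searched. None held a match to the serum response element (1.63%), the cyclic AMP response element (TGACGTCA, 1.79%) or the sterol regulatory element (TCACCCCAC, 0.551%). These are matches of letters in a short window and say nothing of binding. Klf10 has no window in the table used.

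Klf2 and Klf4 rose most within the family, Klf6 rose by less, and the remaining members did not pass an adjusted p of 0.05. Of the 14 Klf transcripts, 3 passed this threshold, all higher with simvastatin. Over all transcripts, 2.09% passed in either direction and 1.11% were higher. The higher side of Klf2 was set by its listing, as given below. The authors' own call, which is looser, marked 8 Klf transcripts as higher and 1 as lower, where 5.13% and 4.37% of all transcripts carry it. By gene, 3 of the 9 passed an adjusted p of 0.05, as did 3.82% of all genes. At an adjusted p under 0.1 there were 5, all higher (13.7% of all genes in either direction). By the authors' call there were 7, of which Klf10 was the 1 lower gene (15.5% of all genes), and at an unadjusted p under 0.05 the same 7 (32.4%). Because the family was chosen with these results known, its counts are not read against those shares.

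Klf2 has 1 listed transcript, Klf2-201, with 3 exons on chromosome 8 (72319033 to 72321656, + strand, GRCm38). Its group value was 0.51 in control and 15.73 with simvastatin. The authors' deposited table gives a fold of 30.92 and an adjusted p of 0.038. Klf2 had the largest fold of the 14 Klf transcripts.

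Klf4, likewise with 1 listed transcript (Klf4-201, 5 exons, chromosome 4, 55527143 to 55532466, - strand), stood at 0.84 in control and 21.30 with simvastatin. Its fold in the authors' deposited table was 25.25, with an adjusted p of 0.042. The gain in group value, simvastatin minus control, was 15.22 for Klf2 and 20.46 for Klf4.

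Control values this low make the ratios depend on what is added to them. With 1 added to each group value, the Klf2 ratio was 11.1 and the Klf4 ratio 12.1, log2 ratios of 3.47 and 3.60. With 5 added the log2 ratios were 1.91 and 2.17, and with nothing added 4.95 and 4.66. Klf2 has the larger ratio with 0 or 0.1 added, and Klf4 the larger with 1 or 5 added, so these data give no order between them. Rounding of the printed values alone allows a Klf2 ratio from 30.5 to 31.2 and a Klf4 ratio from 25.2 to 25.5.

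The table holds no transcript under 0.71 in both groups, and how low transcripts were left out is not stated. The Klf2 control value lies under that level, so Klf2 is in the table through its simvastatin value. Its higher side was therefore set by its listing and adds nothing to the counts of direction. A control value under 1 with a simvastatin value of at least 1 is found for 1018 transcripts (6.4%). Of the 176 transcripts that were higher at an adjusted p under 0.05, 17 had a control value under 1. Ranked by fold among the 176, Klf2 was at place 8, Klf4 at 9 and Klf6 at 39.

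**Figure D2:**
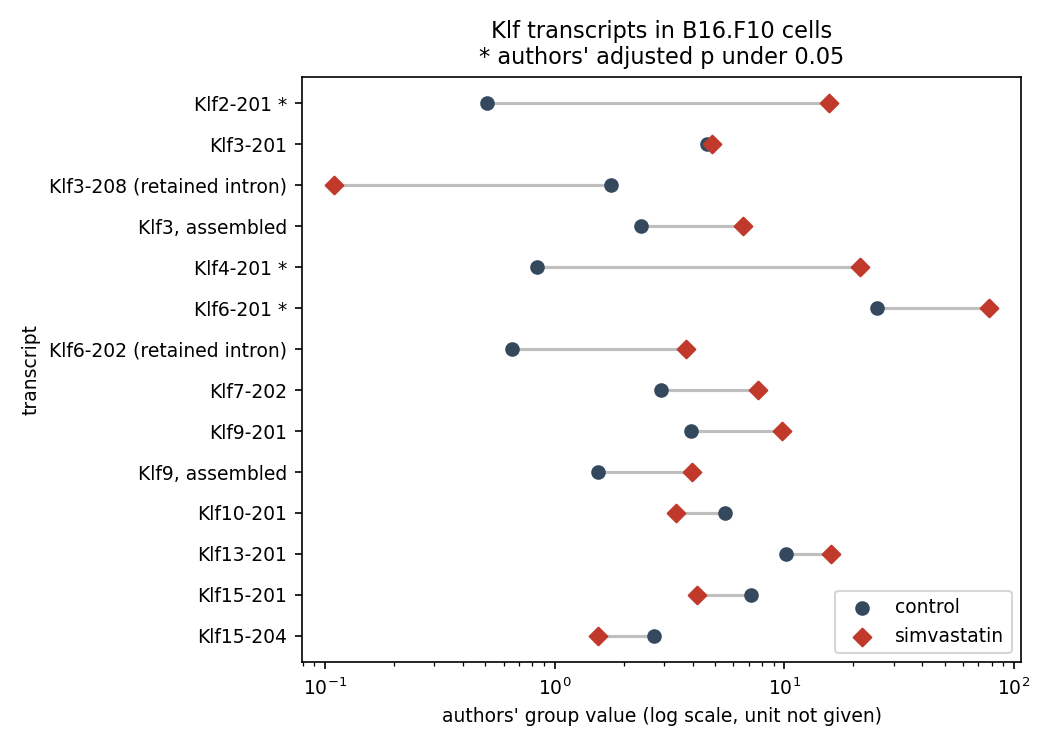
Authors' group values of the 14 Klf transcripts (y axis) in control (circles) and simvastatin (diamonds), on a log scale with the unit unknown; the asterisk marks an adjusted p under 0.05. Klf2-201 and Klf4-201 move from under 1 in control to 15.73 and 21.30, while Klf10-201, both Klf15 transcripts and Klf3-208 have their diamonds on the lower side.

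Klf6, a broadly expressed activator, had 2 listed transcripts (chromosome 13, 5861482 to 5870394, + strand). The protein-coding Klf6-201 rose from 25.28 to 77.76, a fold of 3.08 in the authors' deposited table (adjusted p = 0.025). Klf6-202, annotated as a retained intron, had 3.74 with simvastatin and 0.65 in control (fold 5.79, adjusted p = 0.159 in the authors' deposited table). Both transcripts were on the higher side. No listed transcript is under 0.71 in both groups, so Klf6-202 is in the table through its simvastatin value. Its direction therefore adds nothing to that of Klf6-201. Summed over the gene the values were 81.5 and 25.93, a log2 ratio of 1.62 with 1 added and 1.65 without. Unlike those of Klf2 and Klf4, the Klf6 ratio hardly depends on the added constant, and with 5 added it was 1.48.

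Klf7, known for roles in neurons and fat cells, had 7.71 with simvastatin and 2.90 in control for its 1 listed transcript, Klf7-202 (adjusted p = 0.094 in the authors' deposited table). Its log2 ratio with 1 added was 1.16. Klf7 did not pass.

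Of the Sin3A-binding repressors Klf9, Klf13 and Klf10, none passed an adjusted p of 0.05. Klf9, a glucocorticoid-responsive gene, had 2 listed transcripts, Klf9-201 and a model assembled from reads. Klf9-201 stood at 9.78 with simvastatin and 3.93 in control (adjusted p = 0.111) and the assembled model at 3.97 and 1.54 (adjusted p = 0.077 in the authors' deposited table). The 2 models gave similar folds, 2.49 and 2.58, and the gene's log2 ratio was 1.19 with 1 added. Klf13, known in lymphocytes and heart, had 16 with simvastatin and 10.16 in control (fold 1.57, adjusted p = 0.187 in the authors' deposited table). Klf10 (chromosome 15, 38291463 to 38300706, - strand) was on the other side, with 3.39 for simvastatin and 5.53 for control, a control value 1.63 times the simvastatin value. Its adjusted p in the authors' deposited table was 0.106, and its log2 ratio was -0.57 with 1 added. Klf10 is the 1 Klf transcript that the authors called lower.

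Klf3, the CtBP-binding member, had 3 listed transcripts that did not move together. Klf3-201, which is protein-coding, had nearly equal values, 4.85 with simvastatin and 4.62 in control. The retained-intron transcript Klf3-208 had 0.11 and 1.77, and an assembled model 6.61 and 2.37, and neither passed (adjusted p = 0.582 and 0.587 in the authors' deposited table). With a simvastatin value under 0.71, Klf3-208 is in the table through its control value, so its lower side was set by its listing. The gene's log2 ratio with 1 added was 0.37 over all 3 and -0.31 over the Ensembl transcripts alone, Klf3-208 among them. No direction can therefore be given for Klf3.

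Klf15, known for glucose and amino acid metabolism in liver and muscle, had 2 listed transcripts, both protein-coding. Klf15-201 stood at 4.19 with simvastatin and 7.17 in control, and Klf15-204 at 1.54 and 2.72. Neither passed, with 0.78 and 0.802 as the adjusted p in the authors' deposited table. The gene's log2 ratio, -0.69 with 1 added, was the lowest of the family, yet Klf10, with a ratio nearer to 0, had the far smaller adjusted p.

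**Figure D3:**
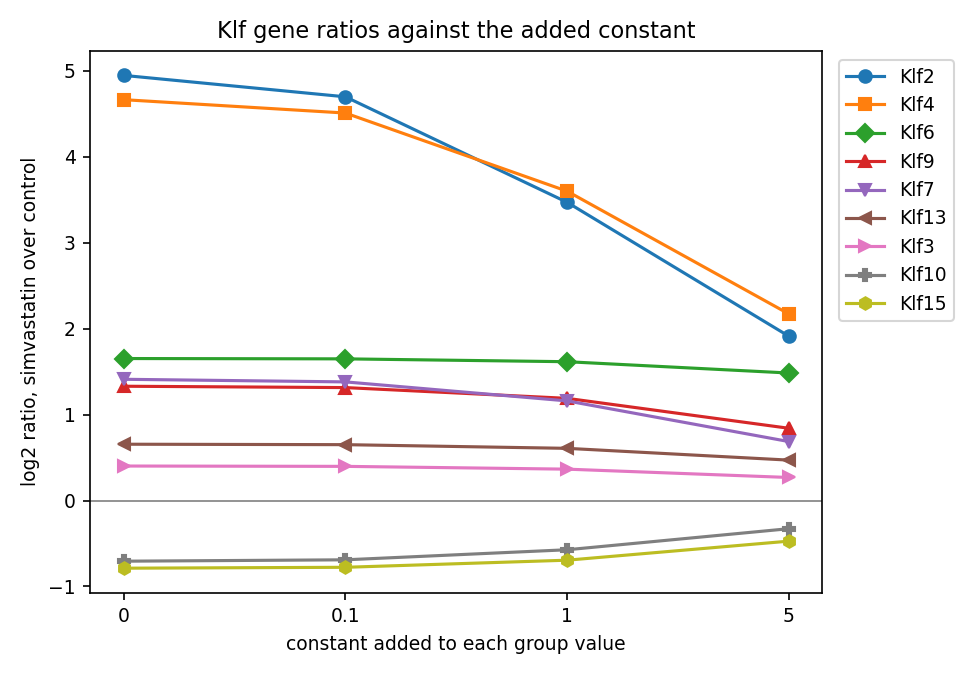
Log2 ratio of summed group values, simvastatin over control, for the 9 listed Klf genes (y axis) when 0, 0.1, 1 or 5 is added to each group value (x axis, evenly spaced categories). The Klf2 line falls from 4.95 to 1.91 and crosses the Klf4 line, while the Klf6 line stays between 1.65 and 1.48.

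Across the family, 7 genes had a higher and 2 a lower total with simvastatin, and 6 and 3 with Ensembl transcripts only, since Klf3 changes side. Klf2 counts among the higher genes, though its side was set by its listing. Of the 9 totals, 3 belong to genes that passed, and the median log2 ratio was 1.16 with 1 added. Over all 8513 genes the median was 0.02, with quartiles of -0.30 and 0.32. A ratio of at least 2 in either direction was found for 5 of the 9 Klf genes (Klf2, Klf4, Klf6, Klf7 and Klf9) and for 6.25% of all genes. By log2 ratio with 1 added Klf4 was at place 3 and Klf2 at place 4 of the 8513 genes. The 2 genes above them, Hist2h3c1 and Sh3d19, had control values of 0.01 and 0.00, and neither passed (adjusted p = 0.749 and 0.748 in the authors' deposited table). Klf6 was at place 46, Klf9 at 149 and Klf7 at 161, while Klf15 and Klf10 were at places 606 and 893 from the lower end. With nothing added, Klf2 and Klf4 were at places 14 and 15 of the 8505 genes above 0 in both groups.

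**Figure D4:**
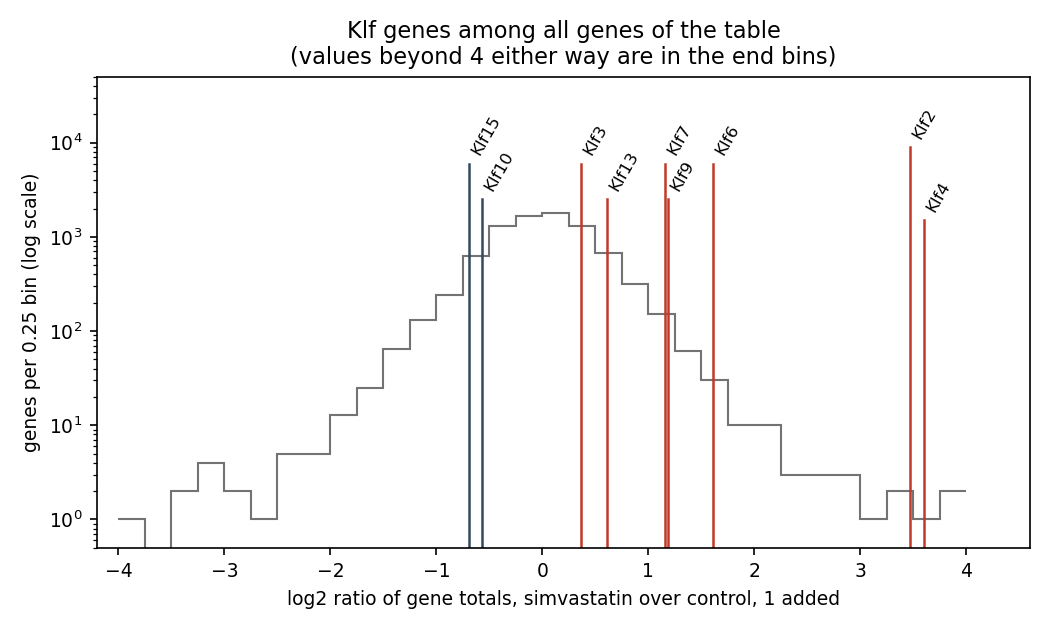
Number of genes per bin of 0.25 (y axis, log scale; ratios beyond 4 counted in the outer bins) by log2 ratio of gene totals with 1 added (x axis), as a grey outline, with a line for each of the 9 listed Klf genes (red higher, blue lower with simvastatin; line heights are arbitrary). Klf2 and Klf4, at 3.47 and 3.60, lie far out on the higher side, and Klf10 and Klf15, at -0.57 and -0.69, lie within the bulk of genes.

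Added up over the table, the group values came to 344210 for simvastatin and 394749 for control. Making these totals equal moves genes by up to 0.20 in log2 and changes the direction of no listed Klf gene.

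The study set its mouse data beside A375, a human melanoma line, given 10 µM simvastatin for 24 h in an outside signature. Dose and species differ from those of the mouse experiment, so the values stand side by side without a test. KLF2 had a z-score of 1.79 and KLF4 one of 2.02 in the authors' deposited table, at places 24 and 16 from the top of its 158 entries. The median entry had a z-score of 0.27, and the entries ran from -9.22 to 6.04. Of the 94 entries that were higher in B16.F10, 72 had a z-score above 0, with a median of 0.74 over the 94. Klf4 and Klf2 were at places 1 and 2 of this table by the mouse log2 fold change, at 3.60 and 3.47, while their A375 z-scores lie well below its top. The table's mouse column is within 0.01 of the log2 ratio with 1 added for 119 of its 120 entries with 1 listed transcript. Klf6 passed in the mouse cells but has no entry, as is true of 175 of the 325 genes with a transcript at an adjusted p under 0.05.

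Genes linked to the family were taken from 8 lists, which share some genes. In them 4 of 66 listed genes had a transcript past an adjusted p of 0.05, 2 higher and 2 lower, where 2.03% of all genes were called higher and 1.81% lower. Of the Sp factors, close relatives that share the zinc finger type, 3 of 9 were listed, with a median log2 ratio of 0.00 (1 added, as for all lists). Sp3 had 1 of 3 transcripts past the threshold, at 3.57 with simvastatin and 0.38 in control (adjusted p = 0.044 in the authors' deposited table). With a control value under 0.71, this transcript is in the table through its simvastatin value, so its higher side was set by its listing. The Sp3 total over the 3 transcripts was 13.63 with simvastatin and 14.60 in control, so the gene as a whole did not follow that transcript.

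For the pathway known upstream of Klf2 and Klf4, 11 of 17 genes of the MEK5, ERK5 and MEF2 list were listed and 0 passed. Of the 11, 9 had a higher and 2 a lower total, with log2 ratios from -0.06 to 0.98 and a median of 0.23. With Ensembl transcripts only, 7 had a higher and 3 a lower total, with a median of 0.15. Over all genes the median was 0.02, with quartiles of -0.30 and 0.32. The 2 genes named for their highest mean values lie nearer the middle of the range of the 11. Pdcd10, a gene of the CCM complex, was at 28.22 with simvastatin and 24.00 in control, and the scaffold gene Sqstm1 at 202 and 180. The immediate early genes, which share fast induction with Klf10 and other members, had 11 of 24 listed, 0 past the threshold and a median of 0.48. Of these 8 had a higher and 3 a lower total, with log2 ratios from -1.35 to 1.14. Jund and Ier3, named for their highest mean values, had 40.3 and 37.4 with simvastatin and 28.2 and 33.1 in control.

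Genes known as KLF2 and KLF4 targets in other cells did not share a direction. Of 30, 12 were listed, 6 with higher and 6 with lower totals, and the median log2 ratio was 0.04. Neither this list nor that of KLF6 targets below separates targets known to be raised from those known to be lowered. Their splits and medians therefore say nothing for or against a response of the targets, which was not tested. A transcript of Ptgds, the prostaglandin D synthase gene, rose from 19.09 to 53.73 (adjusted p = 0.042 in the authors' deposited table), and the Ptgds total was 614 with simvastatin and 174.5 in control. A transcript of Ccnb1, the mitotic cyclin gene, fell from 28.54 to 15.24 (adjusted p = 0.042 in the authors' deposited table). Of 15 known KLF6 targets, 11 were listed with a median of -0.03, and a transcript of the cell cycle factor gene E2f1 fell from 12.84 to 10.45 (adjusted p = 0.042 in the authors' deposited table).

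For Klf10 and its TGF-beta setting, 14 of 22 genes were listed, 0 passed and the median was 0.18. Smad4, the common TGF-beta signal carrier, had 26.26 with simvastatin and 24.99 in control. The list of cofactors that the repressor members bind had 11 of 13 genes listed, 0 past the threshold and a median of 0.01. The corepressor gene Ctbp1 had a total of 69.4 with simvastatin and 67.0 in control. The deacetylase genes Hdac1 and Hdac2 had totals of 28.3 against 38.0 and 50.3 against 64.3. Their smallest transcript adjusted p was 0.053 and 0.052 in the authors' deposited table, and for Hdac1 it belongs to 1 of 2 transcripts, at 26.32 and 35.88. Of 10 pluripotency partners of Klf4, Myc was the 1 listed, at 1.83 with simvastatin and 1.47 in control, while entries for Pou5f1, Sox2 and Nanog were not found.

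**Figure D5:**
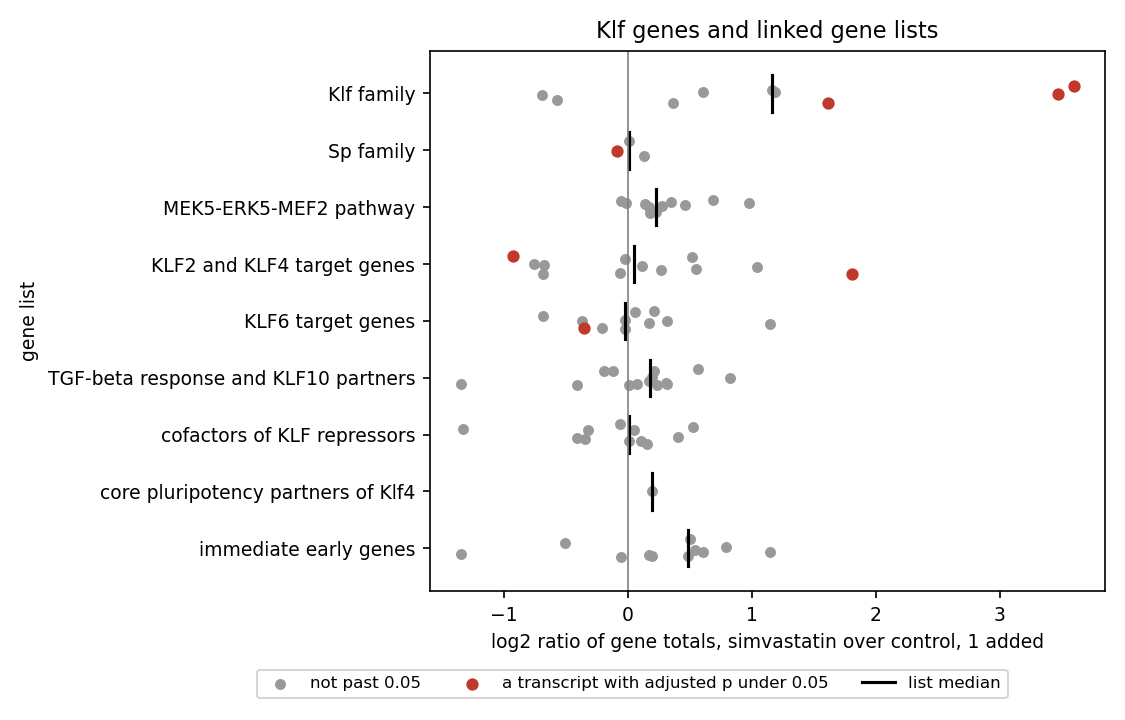
Log2 ratio of gene totals with 1 added (x axis) for each listed gene of the Klf family and of 8 linked lists (y axis); red points have a transcript with an adjusted p under 0.05, and black bars are list medians. The Klf family has the median farthest from 0 of the lists drawn, 1.16, and the linked lists have medians from -0.03 to 0.48. The family was chosen with this comparison known, so its median is not read against theirs.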

How the data were processed

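Stranded libraries of total RNA from 6 cultures were sequenced, per the labels' protocols. HISAT2 2.0.5 and StringTie on GRCm38 (mm10) are named in the submitters' processing notes. How reads were counted, low values filtered and groups tested is not stated in the sources used. Each group has 3 biological replicates, per the labels, and which spread the p-values rest on is not stated. The main table deposited by the authors holds an expression value per transcript and group, a signed linear fold, a p-value and an adjusted p-value printed to 3 decimals. A further deposited table holds log2 fold changes per gene and a z-score, a score of A375 cells from an outside signature. Samples were grouped by title, and no value per sample was used.

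Here group values were summed per gene identifier, and log2 ratios were taken with 1 added. A gene counted as called if any transcript had an authors' adjusted p under 0.05. Nothing was refitted, and without values per sample no test could be added. The family and the lists were chosen with earlier results of these data known. Named genes are all Klf genes, up to 4 called genes per list (or the 2 of highest mean value where none was called), and the 3 protein-coding genes nearest to each of 4 members by log2 group values. Other named genes (flanking genes, genes above Klf4 in the ranking and genes of an enrichment term) were chosen after their values were seen. Of 166 genes on the lists, 77 were found, and 1 further list is not reported here. Annotation came from GENCODE M21 and promoter windows from RefSeq, both on GRCm38. A comparison of protein sequences, planned at the start, was not made. On simulated data, the ratio with nothing added and the search for the motif TATTTATA were checked. The ratio check could not have failed, since it divides each value by the value it was made from. Summing over transcripts, the ratio with 1 added and motifs with variable bases were not checked. Python 3.11.15, pandas 2.3.3, numpy 2.4.6 and matplotlib 3.10.9 were used.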

Additional observations from a re-analysis of the deposited data

How the results depend on the processing

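The count of Klf genes called, 3 at an adjusted p under 0.05, was 5 at an adjusted p under 0.1 (all higher), 7 by the authors' own call and 7 at an unadjusted p under 0.05 (6 higher and 1 lower in each). It was 3 with a mean group value of at least 1 and with Ensembl transcripts only. The median log2 ratio of the 9 genes, 1.16, ran from 0.69 (5 added) to 1.34 (group totals made equal). Of 63 values per gene under 7 alternatives, 56 stayed within 1.5-fold of the reported one; the other 7 were Klf2 and Klf4 with 0, 0.1 or 5 added and Klf3 with Ensembl transcripts only (-0.31). Of the 66 list genes, 4 passed at 0.05 (3.82% of all genes), 12 at 0.1 (13.7%), 18 by the authors' call (15.5%) and 27 at an unadjusted p under 0.05 (32.4%). List medians and motif counts moved by less than 1.5-fold under the alternatives tried.

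No paired analysis was possible because no values per sample were at hand; leaving out a replicate could not be run for the same reason. Depth is unknown, so the precision of the low control values of Klf2 and Klf4 cannot be given.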

Other observations

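The genes whose group values lay nearest to those of each member were sought among 7557 protein-coding genes outside the family, by distance in log2(value + 1) over the 2 group values only. Because the unit and its scaling by length are not stated, nearness in these values is a description of the table, not of transcript levels. Nearest to Klf2 were Fam49a, at 12.9 with simvastatin and 0.56 in control (distance 0.27), Adamts13, at 13.79 and 1.06, and Sh3d19, listed at 0 in control. Adamts13 and Fam49a were also the nearest genes to Klf4, followed by Capza1, at 22.16 and 2.10. Of these only Fam49a had an adjusted p under 0.05 (0.043 in the authors' deposited table). Nearest to Klf6 were Idi1, St3gal1 and Trp53inp2. Idi1, an isomerase gene of the mevalonate pathway, had totals of 74.95 and 23.33, and its smallest transcript adjusted p was 0.072 in the authors' deposited table. Trp53inp2 passed, with an adjusted p of 0.038 in the authors' deposited table. Around Klf10 the table is dense, and Dhodh, Tbc1d5 and Bace1 lay within 0.06 of it. With 2 values per gene, likeness says little beyond level and ratio.

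The authors' enrichment table places Klf2 in the KEGG term for fluid shear stress and atherosclerosis, with 17 called genes that were higher, a fold enrichment of 2.78 and an adjusted p of 0.0134. Klf2 has the largest log2 ratio of the 17 with 1 added, before Itgb3, an integrin subunit gene, at 42.0 and 5.85. A call on 1 transcript does not fix the gene total, and Txn1 of this term had a total of 33.8 with simvastatin and 194 in control. Klf2 is also in the apelin term (adjusted p = 0.141 in the authors' deposited table). Klf4 and Klf7 are in the term for negative regulation of transcription by RNA polymerase II (47 genes, fold enrichment 1.82, adjusted p = 0.00928 in the authors' deposited table). The authors' network and aggressiveness tables hold no Klf gene.

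In the genome, 5 of the 9 listed Klf genes overlap no other annotated gene. The remaining 4 (Klf3, Klf7, Klf9 and Klf13) overlap 8 annotated genes, of which 0 are in the table, and whether counting used the strand is not stated. Of the 18 nearest listed genes on either side, 2 had an adjusted p under 0.05 in the authors' deposited table, where 3.82% of all genes did. Both lie beside Klf3: Fam114a1, with totals of 15.91 and 4.95, and Tbc1d1, with nearly equal totals of 11.32 and 10.11. The genes flanking Klf2 were Eps15l1, 19.3 kb away, at 11.06 with simvastatin and 9.40 in control, and Gm10282, 13.8 kb away, at 4.99 and 14.45. On one side of Klf4 the nearest listed gene was Rad23b, at 45.3 and 52.8.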
